A study of Arabidopsis thaliana with 6 samples.

Results

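The 8 genes described here encode repressors of flowering in Arabidopsis thaliana. AP2 (AT4G36920), TOE1 (AT2G28550), TOE2 (AT5G60120), TOE3 (AT5G67180), SMZ (AT3G54990) and SNZ (AT2G39250) are the 6 AP2-like genes whose messages carry a site for the microRNA miR172. TEM1 (AT1G25560) and TEM2 (AT1G68840) are the TEMPRANILLO genes. They were chosen by locus, as every probe outside the array's controls whose name holds one of these loci. Each of the 8 had 1 probe, among 35475 gene identifiers on the array, and all 8 were among the 23394 genes tested. By their locus identifiers, TEM1 and TEM2 lie on chromosome 1, TOE1 and SNZ on chromosome 2, SMZ on chromosome 3, AP2 on chromosome 4, and TOE2 and TOE3 on chromosome 5.

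The study compared seedlings overexpressing sORF2146, a coding sequence that the series' title traces to mitochondria, with seedlings that carry the empty vector pMDC32. The series asks what sORF2146 does in the plant, and its title concerns flowering. Both groups are transgenic. All seedlings were 14 days old and grew on solid MS medium in 14 hours of light and 10 hours of darkness. Total RNA of 3 biological replicates per group was hybridised to 1-colour arrays. The promoter that drives sORF2146, and whether the replicates of a group come from 1 transgenic line or several, are not given in the sources used here. In RNA from whole seedlings, fewer cells that express a gene and less RNA per cell cannot be told apart.

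AP2-like factors of this group repress the genes that start flowering, and in part recruit the co-repressor TOPLESS to do so. As a plant ages, miR172 accumulates and lowers these factors by cleavage of their messages and by blocking their translation, so the message level is only part of their control. The TEM proteins carry an AP2 domain and a B3 domain. They act mainly in young plants, where they repress the florigen gene FT and gibberellin synthesis.

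An array had 65.3% to 68.8% of its probes well above background, and none was saturated. Signals below are given as a percentage of the 75th percentile of the same array, which lay between 817 and 1170 intensity units. This scaling changes what a small difference means. Before scaling, the median gene was 0.28 lower in the overexpressor on the log2 scale, and after it the median gene was 0.03 higher. The median of 10 spike-in RNAs, which are added alike to each sample, was -0.06 different before scaling and 0.25 higher in the overexpressor after it. Vector control replicate 1 had the lowest mean correlation with the other arrays of its group, at 0.974. The overexpressor arrays shared 1 slide and the control arrays another, so the effects of slide and genotype cannot be told apart. The 3 shoot markers were well above background on all 6 arrays, as were the 4 root markers, so both parts of a seedling were measured. No flower marker was well above background on every array. Of the 2 seed markers, EM1, a late embryogenesis gene, was not well above background on the overexpressor arrays, at 0.206%, 0.227% and 0.198%, against 174%, 29.4% and 2.25% in vector control replicates 1, 2 and 3. It was highest in vector control replicate 1 and did not pass (limma adjusted p = 0.059). Its part in the values below was not tested. EM6, the other seed marker, differed by -0.44 with groups that overlapped.

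None of the 8 repressors passed the test between the groups. Of all genes tested, 5.17% passed at an adjusted p under 0.05 (limma with Benjamini-Hochberg adjustment), against 0 of 8 here. At an unadjusted p under 0.05 there were 2 of the 8, SMZ and TEM2, where 30.8% of all genes reached it. The groups did not overlap for 3 of the 8 genes, SMZ, TOE1 and TEM2, while they did not overlap for 40.6% of all genes tested, so the share among the repressors is near the background. By direction, 1 of the 8 lay lower in the overexpressor without overlap (17.6% of all genes) and 2 lay higher (23% of all genes). These counts depend on the scaling. With no scaling between arrays, SMZ, TOE1, TOE2 and TOE3 lay lower in the overexpressor without overlap, and AP2, SNZ, TEM1 and TEM2 overlapped. The median difference of the 8 was 0.09, overexpressor minus vector control on the log2 scale, beside 0.03 over all genes tested. Of the 8 differences, 5 were above 0 and 3 below.

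**Figure D1:**
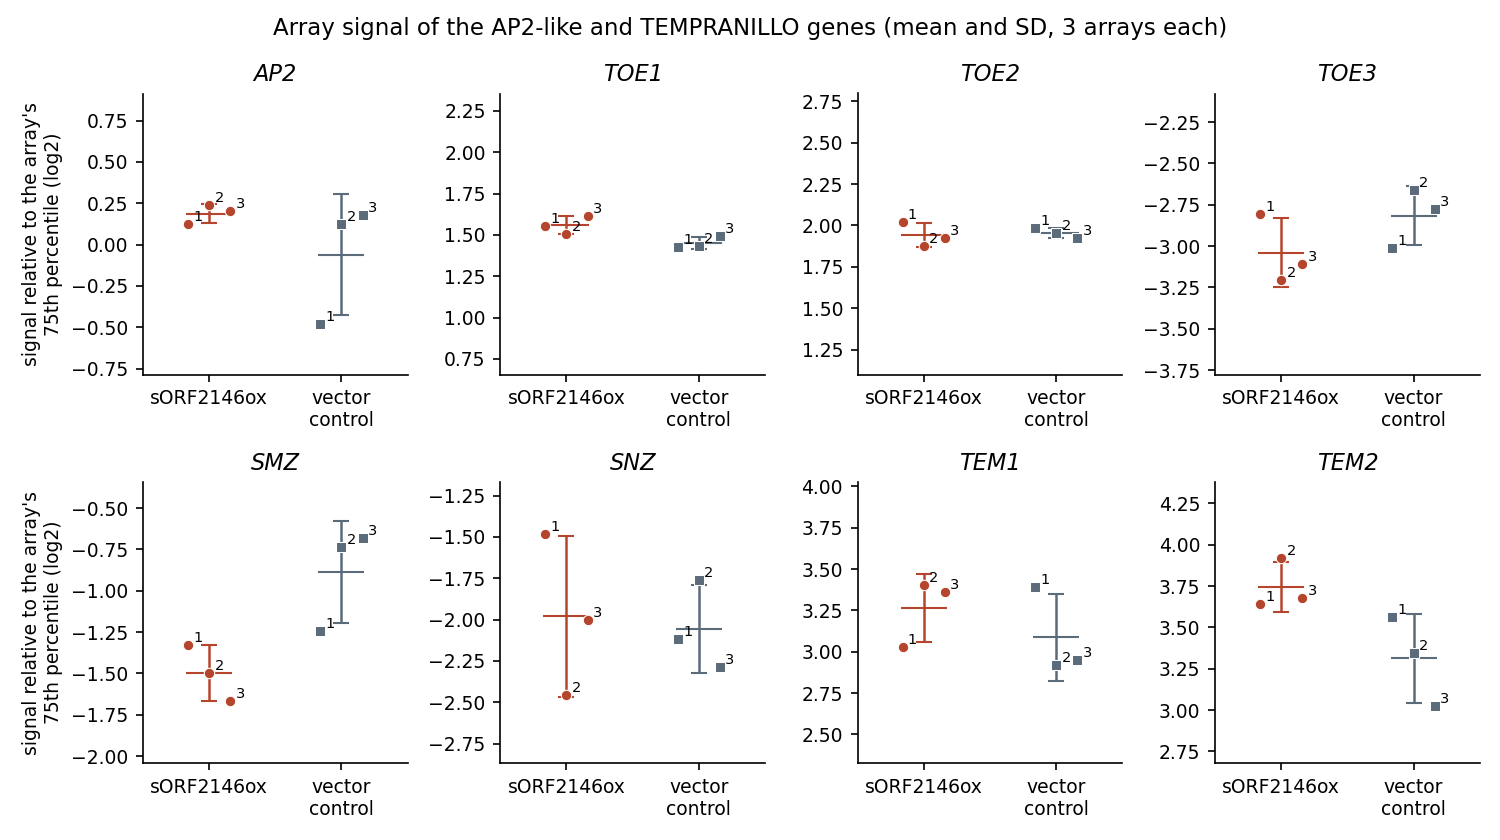
Signal of each gene on each array, as log2 of the signal over the array's 75th percentile, for 3 overexpressor arrays (red circles) and 3 vector control arrays (grey squares), numbered by replicate; bars show the mean and SD, and every panel spans the same range. SMZ lies lower and TOE1 and TEM2 lie higher on every overexpressor array than on any control array, and vector control replicate 1 is apart from the other control arrays for AP2, SMZ and TEM1.

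SMZ, or SCHLAFMUTZE, is an AP2-like repressor that binds the FT locus. It had the largest difference of the 8. Its signal was 39.8%, 35.4% and 31.5% of the 75th percentile in overexpressor replicates 1, 2 and 3, against 42.2%, 60.1% and 62.3% in vector control replicates 1, 2 and 3. The overexpressor arrays all lay below the control arrays, but the lowest control array was close to the highest overexpressor array. The mean was 35.6% ± 4.14 in the overexpressor and 54.9% ± 11 in the vector control (SD, n = 3 each). The difference was -0.61 on the log2 scale (SE 0.18, 95% interval -1.06 to -0.16), a ratio of 0.655, which missed the threshold (limma adjusted p = 0.093). Its absolute size was above that of 85.4% of all genes tested. Without vector control replicate 1 the difference was -0.79 and passed (limma adjusted p = 0.040), as did 1190 of 23610 genes. With no scaling between arrays it was -0.92 and also passed (limma adjusted p = 0.035), in a setting that moves the median of all genes to -0.28. In that setting 2563 of 23394 genes passed, 2466 of them lower in the overexpressor. It stayed below 0 in all 18 alternatives run, between -0.92 and -0.45, and passed in these 2.

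SNZ, or SCHNARCHZAPFEN, is the closest relative of SMZ and was named with it. Its signal was 35.8%, 18.2% and 24.9% in the overexpressor, against 23.1%, 29.5% and 20.5% in the vector control. The overexpressor arrays spanned the whole range of the control arrays. The difference was 0.07 (SE 0.27), and its 95% interval ran from -0.60 to 0.75, the widest of the 8. The limma adjusted p was 0.87. The sign rested on single arrays: it was -0.18 without overexpressor replicate 1 and -0.04 without vector control replicate 3.

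TOE1 and TOE2 encode the AP2-like repressors that act together in the juvenile and early adult plant. TOE1 had a signal of 294%, 284% and 307% in the overexpressor, against 269%, 269.7% and 282% in the vector control. The lowest overexpressor array stood just above the highest control array. The difference was 0.11 (SE 0.07, 95% interval -0.07 to 0.29, limma adjusted p = 0.35). With no scaling between arrays it was -0.21, and every overexpressor array lay below every control array. The direction of the TOE1 difference thus depends on the scaling. TOE2 had a signal of 405%, 367% and 380.1% in the overexpressor, against 396%, 388% and 379% in the vector control. These values overlap almost wholly. The difference was -0.01 (SE 0.08), and its 95% interval, -0.20 to 0.17, holds ratios between 0.87 and 1.13. With no scaling between arrays the TOE2 difference was -0.33. In both genes the replicates of a group agreed closely, with SDs between 0.03 and 0.07 on the log2 scale.

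TOE3 is a further member of the family, known to repress the floral organ gene AG together with AP2. Its signal was 14.3%, 10.9% and 11.6% in the overexpressor, against 12.4%, 15.8% and 14.6% in the vector control. Overexpressor replicates 2 and 3 lay below every control array, and overexpressor replicate 1 lay among them. The difference was -0.22 (SE 0.15, 95% interval -0.58 to 0.14, limma adjusted p = 0.34). It turned to 0.04 with subtraction of the local background and an offset of 50, and the cause of this turn was not tested.

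AP2, or APETALA2, is best known for setting the identity of sepals and petals, and it also delays flowering. Its signal was 109%, 118% and 115% in the overexpressor, against 71.7%, 109% and 113% in the vector control. The single low array was vector control replicate 1, and the other 2 control arrays lay within the overexpressor range. The mean was 114% ± 4.67 in the overexpressor and 97.8% ± 22.8 in the vector control (SD, n = 3 each). The difference was 0.25 (SE 0.19, 95% interval -0.22 to 0.71, limma adjusted p = 0.40). It was 0.04 without vector control replicate 1 and -0.07 with no scaling between arrays.

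TEM2, also named RAV2, had the second largest difference of the 8. Its signal was 1249.6%, 1510.5% and 1278% in the overexpressor, against 1184%, 1016% and 815% in the vector control. Every overexpressor array lay above every control array. The mean was 1346% ± 143 in the overexpressor and 1005% ± 184 in the vector control (SD, n = 3 each). The difference was 0.43 (SE 0.16, 95% interval 0.03 to 0.83), a ratio of 1.35, which missed the threshold (limma adjusted p = 0.14). It stayed above 0 in all 18 alternatives run, between 0.12 and 0.56, and passed in none of them. The lowest of these values came with no scaling between arrays, where the groups overlapped.

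TEM1 is the partner of TEM2 in the repression of FT. Its signal was 817%, 1059% and 1027% in the overexpressor, against 1049%, 757% and 773% in the vector control. Vector control replicate 1 was as high as the upper overexpressor arrays, and overexpressor replicate 1 was close to the lower control arrays. The difference was 0.18 (SE 0.17, 95% interval -0.25 to 0.60, limma adjusted p = 0.51). It was 0.33 without vector control replicate 1 and -0.14 with no scaling between arrays.

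**Figure D2:**
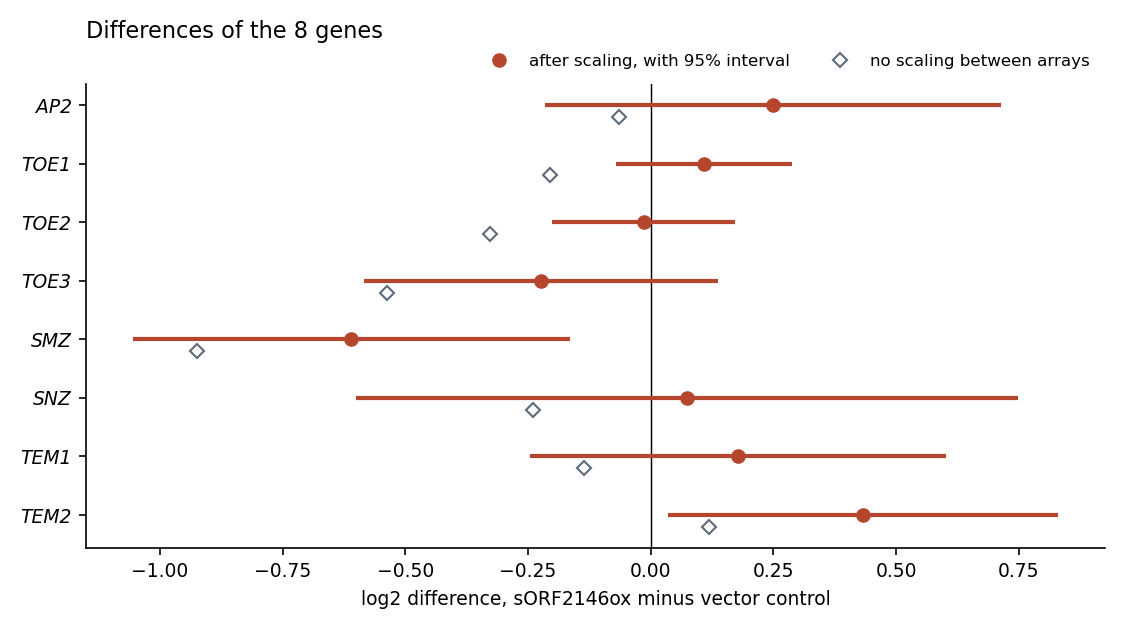
Log2 difference of each gene, overexpressor minus vector control, after scaling to the 75th percentile (red circles, with the 95% interval from limma) and with no scaling between arrays (open diamonds). The intervals of SMZ (-1.06 to -0.16) and TEM2 (0.03 to 0.83) leave out 0, and all 8 values are lower without scaling.

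The difference between 2 probes on the same array does not depend on a scaling by 1 constant per array, such as the 75th percentile, though quantile normalization can move it. The values in this paragraph were chosen after the signals were seen and carry no test. SMZ minus the mean of the other 5 AP2-like genes was -1.21, -1.09 and -1.39 on the log2 scale in the overexpressor, against -0.80, -0.55 and -0.39 in the vector control. All 3 overexpressor arrays lay below the control arrays. The change of SMZ relative to the other 5 was thus -0.65, and it was -0.76 without vector control replicate 1. SMZ minus TEM2 was -4.97, -5.42 and -5.34 in the overexpressor, against -4.81, -4.08 and -3.71 in the vector control. TEM2 minus TEM1 was 0.61, 0.51 and 0.32 in the overexpressor, against 0.17, 0.42 and 0.08 in the vector control, where the groups overlap. SMZ and SNZ overlapped as a pair, with 0.15, 0.96 and 0.34 in the overexpressor against 0.87, 1.03 and 1.60 in the vector control.

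The median SD of the 8 genes was 0.16 in the overexpressor and 0.27 in the vector control on the log2 scale, beside 0.12 and 0.17 over all genes tested. The spread differed among the members. TOE1 and TOE2 lay below the medians of all genes in both groups, as did AP2 in the overexpressor, and SNZ had the largest SD within a group, 0.49 in the overexpressor. AP2 had the largest SD of the vector control, 0.36, which goes with its low value in replicate 1.

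**Figure D3:**
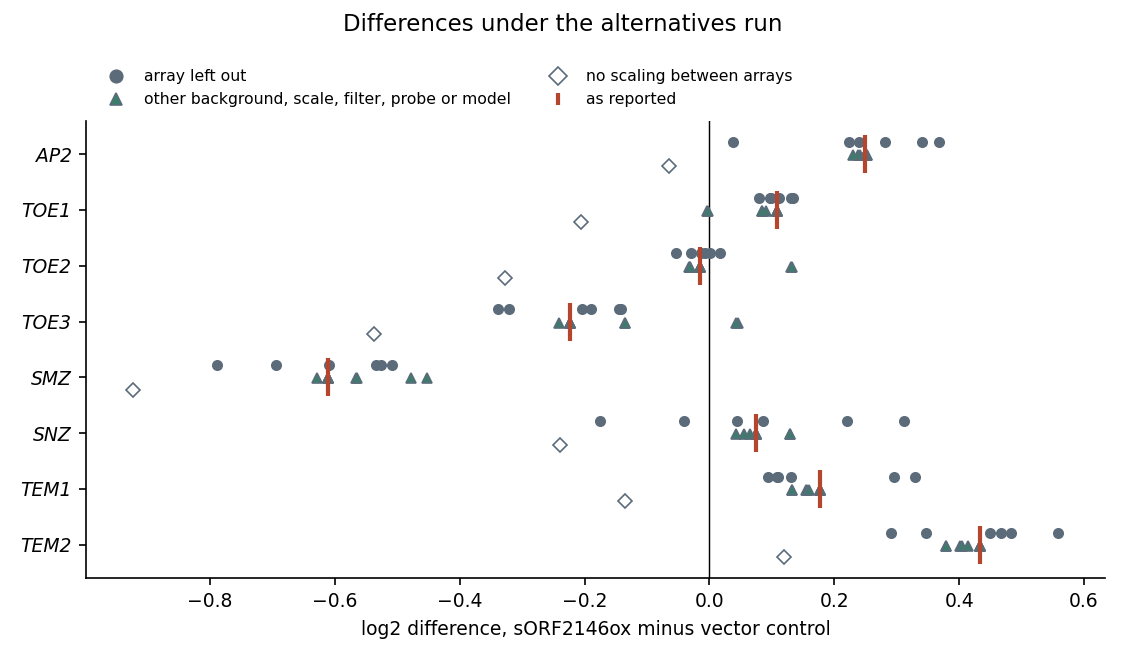
Log2 difference of each gene, overexpressor minus vector control, as reported (red bars), with each array left out (grey circles), under other processing (green triangles) and with no scaling between arrays (open diamonds). SMZ stays below 0 and TEM2 above 0 throughout, while the other 6 genes lie on both sides of 0.

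The genes whose signal followed SMZ most closely over the 6 arrays were sought among 8850 named genes well above background on all of them. NSP4, a nitrile specifier protein of glucosinolate breakdown, had a Pearson r of 0.987. Tudor1, a Tudor-SN protein of RNA granules, also had an r of 0.987, and NIP7;1, an aquaporin-like channel, had an r of 0.985. An r above 0.95 was reached by 41 of the 8850 genes, or 0.463%. The 6 points share 2 groups and 2 slides, so a difference between groups enters each r. Among the other 7 repressors the r with SMZ ran between -0.88 for TEM2 and 0.84 for TOE3.

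The precursor genes of miR172 had no probe under their locus identifiers, and the regulators named upstream of miR172 were compared instead. Of 7 measured, 1 rose and 0 fell, where 2.51% of all genes rose and 2.65% fell, and their median difference was 0.08. The one that rose was SPL10, a SQUAMOSA promoter binding factor that is itself a target of miR156. Its signal was 93.1%, 99.8% and 91.7% in the overexpressor, against 59.5%, 64.4% and 63.3% in the vector control. The groups lay well apart, and the difference was 0.60 (SE 0.08, limma adjusted p = 0.028). SPL10 passed in 10 of 18 alternatives and was above 0 in all of them, between 0.29 and 0.63. It lost the call without any one of the overexpressor arrays or without vector control replicate 2 (limma adjusted p between 0.094 and 0.11), and it was 0.29 with no scaling between arrays. The call was also lost with normexp (0.47, limma adjusted p = 0.31) and with no filter on dim probes (limma adjusted p = 0.054). SPL15 differed by 0.79 (SE 0.35, limma adjusted p = 0.19), and by 0.40 without vector control replicate 1. SPL9, which activates a miR172 gene, differed by -0.14, and SVP, a MADS-box repressor of flowering, by 0.10.

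Genes of microRNA production and of co-repression gave no calls. Of 6 measured genes of microRNA production, 0 passed, with a median of 0.06. HYL1, a double-stranded RNA binding partner of Dicer, differed by -0.25. SERRATE, a zinc finger protein that works with it, differed by -0.22, and AGO1, the slicer, by 0.10. HYL1 turned to 0.02 with background subtraction. Of 6 measured co-repressor genes, 0 passed, with a median of -0.04. TPR4 and TPR2, relatives of TOPLESS, differed by -0.43 (limma adjusted p = 0.084) and -0.40 (limma adjusted p = 0.092), while TPL, TOPLESS itself, differed by 0.18. TPR4 is dim and turned to 0.07 with background subtraction. It passed in 1 of 18 alternatives, with no scaling between arrays (-0.74, limma adjusted p = 0.026). At an unadjusted p under 0.05 there were 1 of the 6 genes of microRNA production and 2 of the 6 co-repressor genes, where 30.8% of all genes reached it.

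Of the 13 genes known as repressed by AP2-like or TEM factors, 10 were bright enough to test. Among these 0 rose and 1 fell, beside 2.51% and 2.65% of all genes, and their median was 0.18. At an unadjusted p under 0.05 there were 5 of the 10, where 30.8% of all genes reached it. FUL, which encodes a MADS-box factor of meristem and fruit identity, fell. Its signal was 1.14%, 1.24% and 1.02% in the overexpressor, against 2.03%, 2.43% and 2.196% in the vector control. The groups did not overlap, and the difference was -0.97 (SE 0.11, limma adjusted p = 0.025). These signals are close to background, and the difference turned to 0.03 with background subtraction and 0.07 with normexp. FUL also lost the call without any one overexpressor array or without vector control replicate 2 (limma adjusted p between 0.073 and 0.093).

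FT, the gene of the mobile floral signal and a target of SMZ and of both TEM proteins, was lower on every overexpressor array but did not pass. Its signal was 4.78%, 2.82% and 4.11% in the overexpressor, against 6.54%, 19.1% and 43.9% in the vector control. The control arrays thus spread more than the gap between the groups. The difference was -2.21 (SE 0.69, limma adjusted p = 0.10), and it was -2.93 without vector control replicate 1, where it passed (limma adjusted p = 0.037). It was -1.55 without vector control replicate 3, -1.05 with normexp and -1.15 with background subtraction, and passed in none of these. With no scaling between arrays it was -2.52 and passed (limma adjusted p = 0.048). In both SMZ and FT, then, vector control replicate 1 was the control array nearest to the overexpressor. SEP3, a MADS-box gene of floral organs, differed by -1.74 (SE 0.56, limma adjusted p = 0.11), SPL4, a small SQUAMOSA promoter binding factor that promotes flowering, by 1.05 (SE 0.25, limma adjusted p = 0.066), and SOC1, an integrator of flowering signals, by 0.12. SPL4 passed in 4 of 18 alternatives. SEP3 passed in 1, with no scaling between arrays (-2.05, limma adjusted p = 0.038). The summed signal of the 4 flower markers lay between 1.98% and 5.54% in the overexpressor, against 3.59% and 18.2% in the vector control. The highest sum, in vector control replicate 2, was mostly AP3, at 15.4%. Singly, AP3 and LFY overlapped between the groups, and AG was lower in the overexpressor. AG was well above background on no overexpressor array and on 2 control arrays, and was too dim to test. PI leaned the other way, with 0.748%, 2.37% and 2.15% in the overexpressor against 0.774%, 0.982% and 1.02% in the vector control, and also overlapped. Of these markers LFY was never well above background, and the part of floral tissue in the FT, SEP3 and FUL values was not tested.

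**Figure D4:**
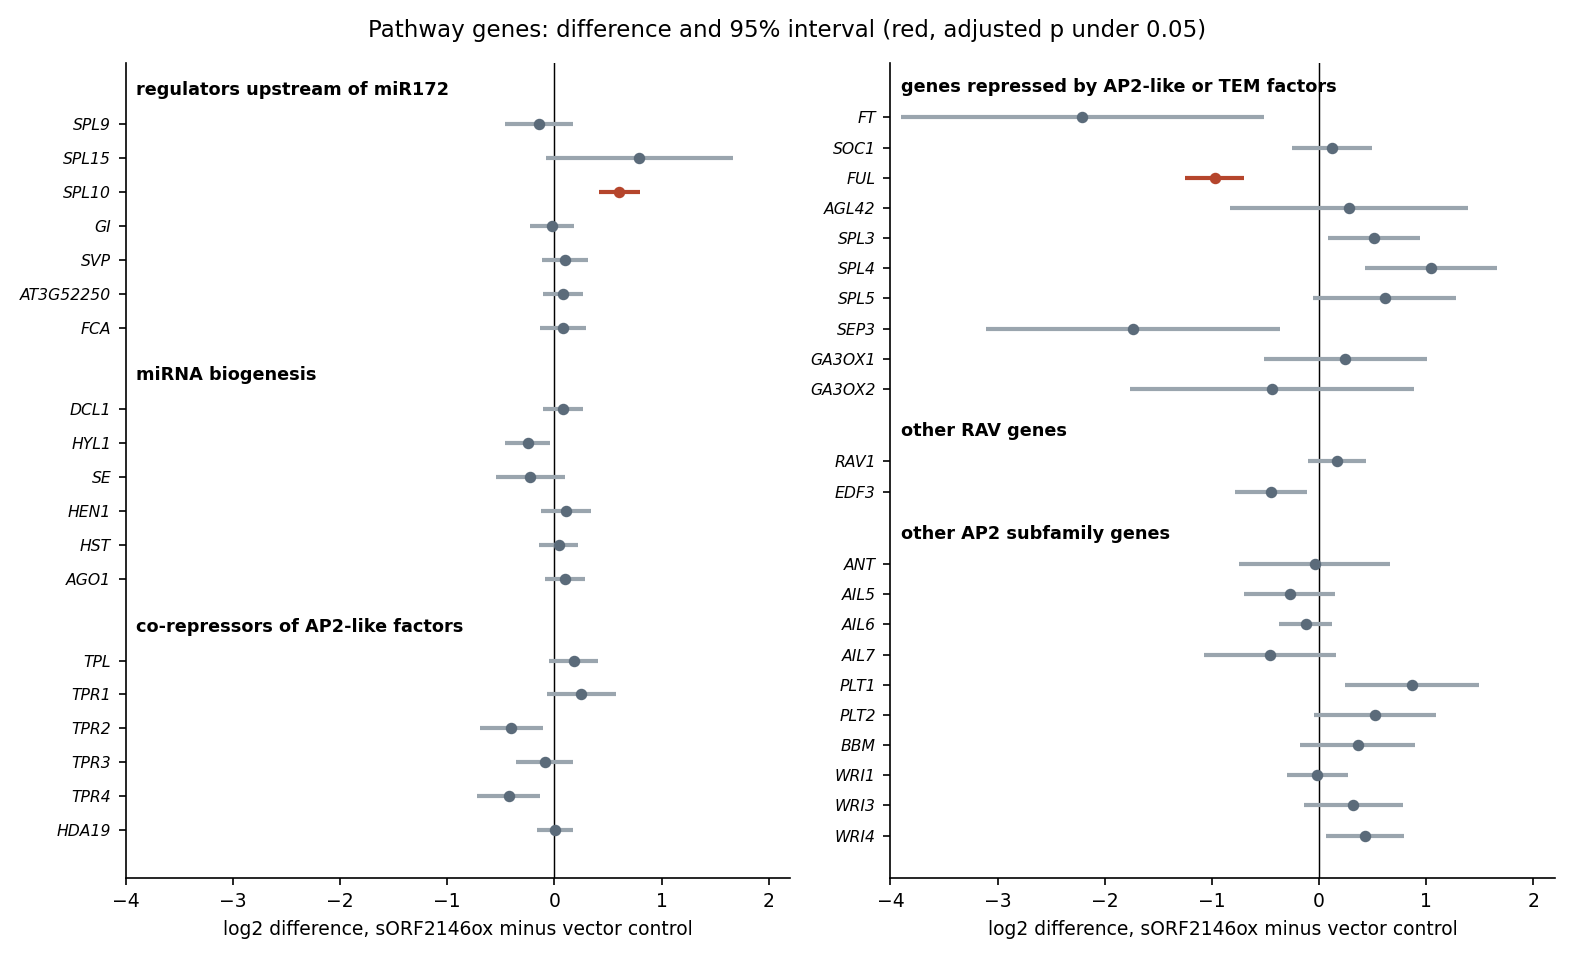
Log2 difference and 95% interval, overexpressor minus vector control, of the genes tested in 6 lists around the 8 repressors, with red for an adjusted p under 0.05. SPL10 (0.60) and FUL (-0.97) are the ones in red, and the intervals of FT and SEP3 are the widest of those below 0.

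Relatives of the 8 genes outside the set gave no calls. Of the other RAV genes, which share the AP2 and B3 domains of the TEM proteins, 2 of 4 were tested and 0 passed. EDF3 differed by -0.45 (SE 0.14, limma adjusted p = 0.097) and RAV1 by 0.17 (SE 0.11, limma adjusted p = 0.34). EDF3 was thus lower and TEM2 higher, and neither passed in the reported fit. With no scaling between arrays EDF3 was -0.76 and passed (limma adjusted p = 0.036). At an unadjusted p under 0.05 there was 1 of the 2 RAV genes tested, where 30.8% of all genes reached it.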

How the data were processed

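Total RNA (200 ng per labelling) of 14-day-old seedlings was measured on 6 one-colour Cy3 arrays. Per the file headers, Agilent Feature Extraction (version 11.5.1.1) made the deposited intensity values and subtracted background and spatial trends within each array. The flags used, other values of 0 or 1, were deposited with them. A deposited table of the series, whose method is not given in the sources used here, matched 35635 probes; its columns shared a median of 120.9 and 96.3% of ranks, as after quantile normalization. Log2 signals were reduced by each array's 75th percentile, outlier spots were set to missing, and a gene was represented by its brightest probe if well above background on all 3 arrays of a group. The overexpressor was set against the vector control with limma 3.58.1 (lmFit, eBayes; R 4.3.3), and p-values were adjusted by Benjamini-Hochberg over all 23394 genes and a threshold of 0.05. The code was tested on simulated data. Figures were drawn with matplotlib 3.10.9.

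The members, lists and rules were chosen with earlier results of these data known. The rule named, of each list, every gene past the test and the 3 next by adjusted p, plus FT, SOC1 and FUL; AG, LFY and the genes of within-array contrasts were added for context. Symbols come from the RefSeq table of TAIR10.1, which held 26415 of 35475 identifiers; 4 list genes without such a symbol were counted by locus. Replicate numbers were not taken to pair samples. The correlations computed to check for such pairing were -0.09, -0.0005 and -0.02 for replicates 1, 2 and 3. They should not be read as correlations of the array signals themselves. Within a group the signals correlated far more closely, with a lowest mean of 0.974. The files hold no mean spot signal, so normexp used the median signal. The number of arrays limits the precision.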

Additional observations from a re-analysis of the deposited data

How the results depend on the processing

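Of 144 values of the 8 repressors under 18 alternatives, 130 kept their sign and 14 turned. No repressor passed in the reported fit. SMZ alone passed without vector control replicate 1, where 1190 of 23610 genes passed. SMZ alone also passed with no scaling between arrays, a setting chosen after the data were seen, where 2563 of 23394 genes passed. Leaving out single arrays gave between 0 and 1 repressor. With no scaling, AP2 turned to -0.065, TOE1 to -0.21, SNZ to -0.24 and TEM1 to -0.14, and of the list genes AGO1 to -0.21, RAV1 to -0.15, SOC1 to -0.19, SVP to -0.22 and TPL to -0.13. With normexp, TOE1 turned to -0.0042, TOE2 to 0.13, TOE3 to 0.0451, FUL to 0.0655, HYL1 to 0.029 and TPR4 to 0.0851. With background subtraction, TOE1 turned to -0.0017, TOE2 to 0.13, TOE3 to 0.042, FUL to 0.0296, HYL1 to 0.0166 and TPR4 to 0.0683. With single arrays left out, TOE2 ranged from -0.0531 to 0.0173, SNZ from -0.18 to 0.31 and SOC1 from -0.0032 to 0.21. Over all genes, the 1209 calls were 4 with normexp, 188 with no filter on dim probes, 2563 with no scaling (97 up and 2466 down), and between 35 and 1191 with an array left out, lowest without vector control replicate 2. Against the 588 up and 621 down reported, quantile normalization gave 779 and 488, the 75th percentile over detected probes 403 and 620, and background subtraction 1013 and 534. The replicate block gave 14 calls and none among the 8, and the calls of SPL10 and FUL were lost in it (limma adjusted p = 0.12 and 0.11). The causes were not tested. Slide as a block could not be fitted, as each slide holds 1 group.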

Other observations

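Among the 10 tested genes of the other AP2 subfamily branch, which holds ANT, the PLETHORA genes and WRINKLED genes, 0 passed the test (limma with Benjamini-Hochberg adjustment) and 2 had an unadjusted p under 0.05, where 30.8% of all genes did, with a median difference of 0.15. PLT1, a factor of the root stem cell niche, had a signal of 73.4%, 75.7% and 69.7% of the 75th percentile in the overexpressor, against 26.8%, 45.2% and 52.6% in the vector control. All overexpressor arrays lay above the control arrays, and the difference was 0.87 (SE 0.25, limma adjusted p = 0.091). It was 0.58 without vector control replicate 1, where it passed (limma adjusted p = 0.047). PLT2, its close relative, differed by 0.52 (limma adjusted p = 0.19), and by 0.26 without vector control replicate 1. WRI4, a regulator of wax synthesis, differed by 0.43 (limma adjusted p = 0.12). The summed signal of the 4 root markers lay between 8408 and 9964% in the overexpressor, against 8575 and 10516% in the vector control, a sum that is nearly all PYK10. Singly, WER, a root epidermis factor, had 91.9%, 91.8% and 88.8% in the overexpressor, against 36.5%, 64.7% and 80.4% in the vector control, lowest in replicate 1 as PLT1 was, with a difference of 0.66 (limma adjusted p = 0.18). COBL9, a root hair gene, differed by 0.41, SHR by 0.01 and PYK10 by -0.11, with groups that overlapped. The part of root tissue in the PLT values was not tested.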
